A study of Mus musculus with 6 samples.

Results

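MiR-221 and miR-222 are a pair of microRNAs (miRNAs) made from neighbouring genes, and their probes were found by name among the probes of a mouse miRNA array. Of 294 probes that name a mouse miRNA, 2 carried mmu-miR-221 or mmu-miR-222, probe 11022 for miR-221 and probe 11023 for miR-222, and each was printed as 4 spots per array. RNA came from 6 separately grown and harvested cultures of G1E-ER4, a single mouse erythroid line that lacks its own GATA-1, the master regulator of red cell maturation, and carries a form of GATA-1 that estradiol switches on. In 3 cultures the cells had received 1e-07 M estradiol for 24 h, and the other 3 were untreated and given as 0 h. All 6 grew in the same medium with 15% serum, 2 U per ml erythropoietin and 50 ng per ml stem cell factor, the ligand of the receptor Kit. Each sample was labelled with Hy3, and a reference mixed in equal parts from all 6 samples was labelled with Hy5. No cells kept for 24 h without estradiol were measured here, so time in culture and estradiol cannot be told apart. In bulk RNA, fewer cells of a kind and less RNA per cell cannot be told apart either.

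A miRNA guides a silencing complex to messenger RNAs that pair with its seed, the bases near its 5′ end, and thereby lowers their translation and stability. MiR-221 and miR-222 are processed from one primary transcript, share a seed, and are known to repress Kit in erythroid progenitors, mast cells and endothelial cells. In cultured human erythroid progenitors their levels are known to decline during maturation. The array measured mature miRNAs and no messenger RNA, so Kit itself was not measured.

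The mature sequences are shown because they carry the shared seed that defines the pair, and bases 2 to 8, the seed, are in capitals. Both were matched by name in RefSeq (GRCm38.p6). The array's names give no arm, and the 3′ arm, which the plain names denoted before arms were written into them, was taken here.
mmu-miR-221-3p: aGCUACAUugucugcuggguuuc
mmu-miR-222-3p: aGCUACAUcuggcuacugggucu
They lie on the minus strand of the X chromosome, at chrX:19146307-19146329 and chrX:19146901-19146923. The first 8 bases are identical, and in all 11 of 23 positions hold the same base when the sequences are aligned from the 5′ end. Of 1679 mature mouse miRNAs in the RefSeq table, 3 have the seed GCUACAU, and the third is miR-1928. Both arms sit in short hairpins, in which the mature miRNA is now in capitals.
Mir221 hairpin: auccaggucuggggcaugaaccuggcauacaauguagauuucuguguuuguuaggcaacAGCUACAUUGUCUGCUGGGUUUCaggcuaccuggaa
Mir222 hairpin: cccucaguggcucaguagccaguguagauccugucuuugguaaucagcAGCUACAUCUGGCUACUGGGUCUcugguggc
The Mir221 hairpin gene spans 95 bases (chrX:19146294-19146388) and the Mir222 hairpin gene 79 bases (chrX:19146893-19146971). Between them lie 504 bases and 0 annotated genes, and no other annotated gene overlaps either one. The nearest gene on the one side is Gm14636, a long noncoding RNA gene 9499 bp away, and on the other Gm5383, a pseudogene 203059 bp away.

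After 24 h of estradiol the log2 ratio of miR-222 to the reference fell, and that of miR-221 was lower in the mean but did not pass the test. The miR-222 log2 ratios were -0.46, -0.44 and -1.04 in estradiol replicates 1 to 3, against 0.11, -0.15 and 0.35 in untreated replicates 1 to 3. All 3 estradiol values lay below all 3 untreated values, and estradiol replicate 3 was the lowest. The means were -0.64 ± 0.34 in estradiol-treated cells and 0.10 ± 0.25 in untreated cells (SD, n = 3 each). The difference was -0.75 (SE 0.19, 95% interval -1.16 to -0.34; limma adjusted p = 0.027, Benjamini-Hochberg over 294 probes). It was the lowest of the 294 differences, whose median was -0.02, and the next lowest, let-7e, was at -0.69. The exact two-sided permutation test over the 6 arrays gave p = 0.1, the smallest p that 3 arrays against 3 allow.

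The miR-221 log2 ratios were -0.52, -0.32 and -0.52 in estradiol replicates 1 to 3, against -0.04, -0.29 and 0.06 in untreated replicates 1 to 3. The groups did not overlap, but estradiol replicate 2 and untreated replicate 2 lay only a little apart. The means were -0.45 ± 0.11 in estradiol-treated cells and -0.09 ± 0.18 in untreated cells (SD, n = 3 each). The difference of -0.36 (SE 0.20, 95% interval -0.78 to 0.06) did not pass the test (limma adjusted p = 0.38; exact permutation p = 0.1, again the smallest possible). It ranked 21 of 294 from the lowest. The interval reaches from a decline as large as that of miR-222 to no decline, so a change of that size was neither shown nor bounded away.

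**Figure D1:**
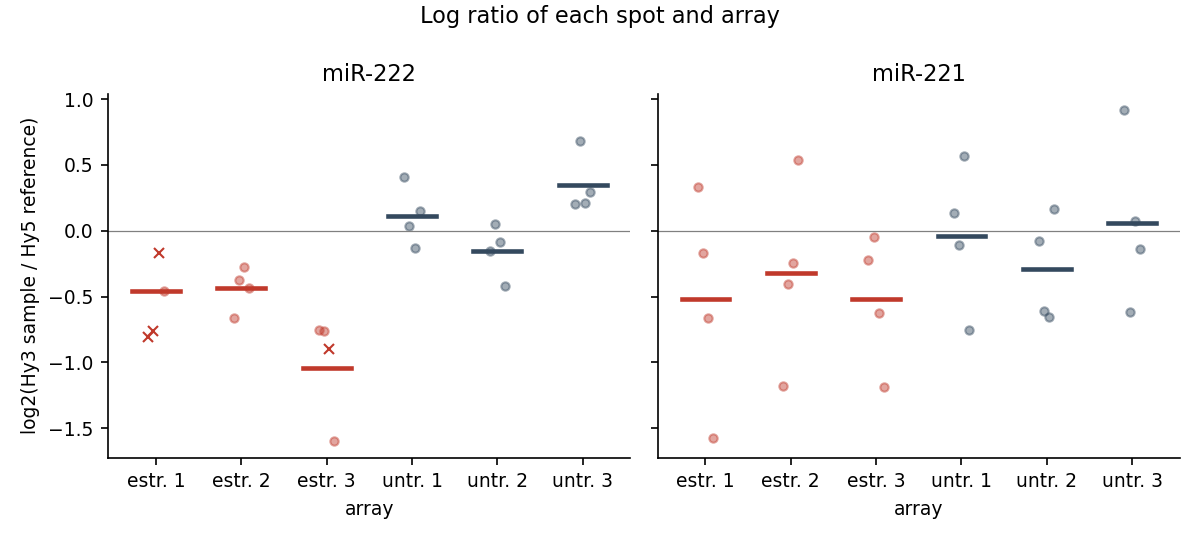
Log2 ratio of Hy3 (sample) to Hy5 (reference) for miR-222 (left) and miR-221 (right) on 3 estradiol arrays (estr., red) and 3 untreated arrays (untr., dark). Points are spots, crosses are spots left out of the mean for a fault of the spot, and bars are array means: for miR-222 the 3 estradiol bars, at -0.46, -0.44 and -1.04, lie below the 3 untreated bars.

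Among all 294 probes, 19 (6.46%) passed the threshold of adjusted p 0.05, 17 higher (5.78%) and 2 lower (0.68%) after estradiol, and miR-222 was 1 of those 2. The other was let-7e, at -0.69 (limma adjusted p = 1.7e-04). The groups failed to overlap with estradiol lower for 21 of the 292 probes with a value on every array (7.19%), and miR-222 and miR-221 were among these. A difference below 0 was found for 153 of 294 probes (52%), so the negative sign of both members was by itself common. The split between higher and lower calls varied with the processing. It was 6 higher and 2 lower when the loess curve used only probes bright in both channels, 6 and 0 in Hy3 alone, and 6 and 3 after centring on spiked controls.

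**Figure D2:**
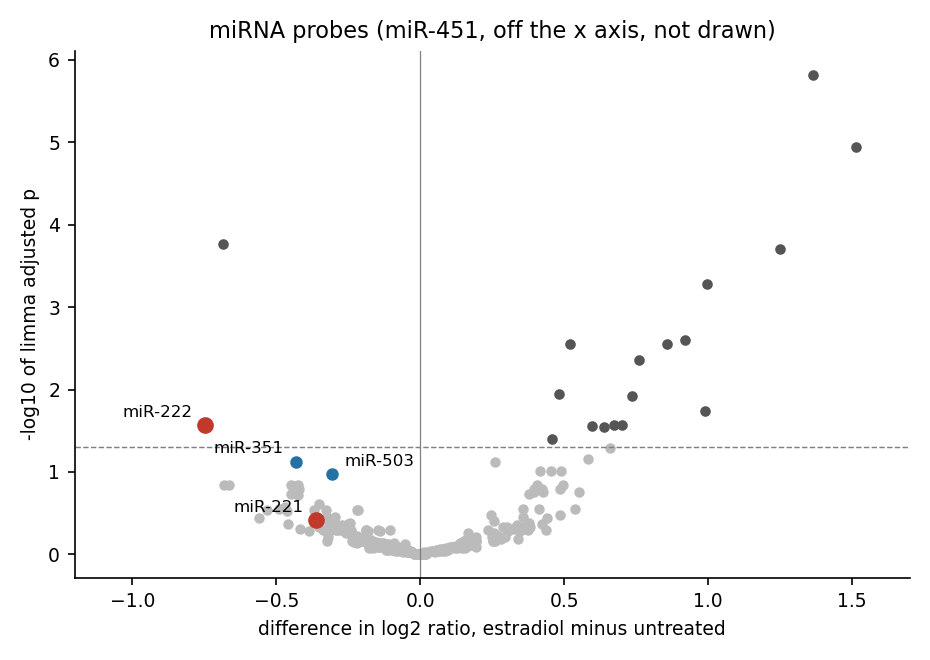
Difference in mean log2 ratio, estradiol minus untreated (x axis), against −log10 of the limma adjusted p (y axis) for the miRNA probes, with miR-451 off the axis. Dark points passed the adjusted p of 0.05 marked by the dashed line; miR-222 (red, difference -0.75) is the point farthest to the left and miR-221 (red, -0.36) lies below the line, with miR-351 and miR-503 in blue.

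The call on miR-222 depended on single arrays. The limma adjusted p was 0.0966, 0.0548 and 0.0910 without estradiol replicates 1, 2 and 3, with differences of -0.84, -0.85 and -0.55, and 0.124 without untreated replicate 3, with a difference of -0.63. Its difference stayed below 0 in all 22 alternatives that gave it a value, and the call ended in 9 of them, with adjusted p between 0.00192 and 0.468 over the 22. The difference of miR-221 was also below 0 in all 22, between -1.96 and -0.02, and passed the threshold in none. The lower end moved with the other probes, and the upper end did not. Relative to the median of all probes, miR-221 was at -0.67 with the loess curve from probes bright in both channels, where that median was -1.29. At the upper end, the authors' lowess spot values with empty spots included, miR-221 was at 0.02 relative to a median of only -0.04.

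**Figure D3:**
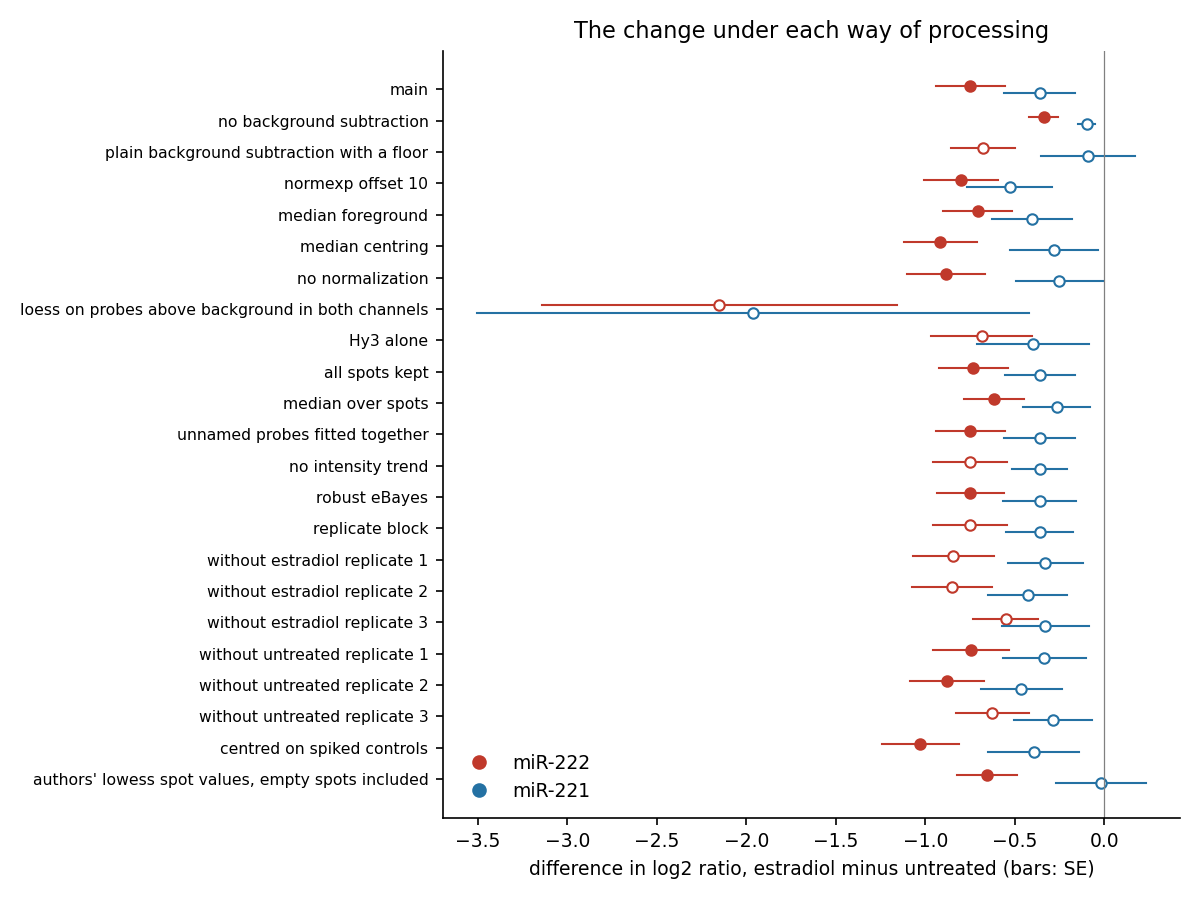
Difference in log2 ratio, estradiol minus untreated, for miR-222 (red) and miR-221 (blue) in the analysis reported here (top row) and under 22 alternatives (in the Hy3 alone row, the difference of the log2 Hy3 level). Bars are standard errors and filled points passed a limma adjusted p of 0.05; every point lies below 0, and miR-222 ranges from -2.15 to -0.34.

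Both probes were dim in the sample channel. The spot finder called all 4 spots of both probes empty in Hy3 on all 6 arrays. No spot of either exceeded the local background by 2 background SD in Hy3. No fold change is therefore given, and the values above are log2 ratios of signals near the background. Of the filters on dim probes, none left a member: 51 probes passed the brightness filter, and 90 passed a filter on spots not called empty, with 0 of the 2 members in each. In the authors' deposited table a ratio for miR-222 was given only for estradiol replicate 1 (log2 -0.48) and estradiol replicate 3 (log2 -0.70), and none for miR-221.

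Net intensity is the median foreground minus the median local background of a spot, here as the median of 4 spots. For miR-222 in Hy3 it was 619, 282 and 373 in estradiol replicates 1 to 3, against 408, 274 and 830 in untreated replicates 1 to 3. The groups overlapped. These values lay above those of 78 to 80 of the 80 blank spots on each array, so miR-222 was dim but above nearly all blanks. For miR-221 in Hy3 net intensity was -14.8, -42 and 198 in estradiol replicates 1 to 3, against 81.75, -83.25 and 324 in untreated replicates 1 to 3. These lay above 19, 12 and 78 of 80 blanks on the estradiol arrays and above 49, 8 and 79 on the untreated arrays. In replicates 1 and 2 of both groups miR-221 was thus within the range of the blanks, and in replicate 3 of both it was near their top.

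The reference channel of miR-222 also differed between the arrays, although it held the same mixture on each. Its net intensity in Hy5 was 1058.5, 372 and 865 on estradiol arrays 1 to 3, against 167.5, 327 and 377 on untreated arrays 1 to 3. The highest 2 values were on estradiol arrays, and only estradiol array 2 fell within the untreated range. The spot finder called the reference of miR-222 not empty on estradiol arrays 1 and 3 alone. For miR-221, Hy5 net intensity was 61.75, -11.75 and 160.5 on the estradiol arrays, against 68, -4.75 and 69.5 on the untreated arrays, and it was called empty everywhere. Over all 294 probes the reference was called not empty for 133, 130 and 121 on the estradiol arrays, against 89, 115 and 80 on the untreated arrays. The background also differed. Its median in Hy5 was 556.5, 543 and 586.75 on the estradiol arrays, against 536.25, 747 and 1183.5 on the untreated arrays. In Hy3 it was 1035.5, 1017 and 1004.75, against 982.5, 1202.5 and 1412, so untreated array 3 was highest in both channels. The part of the background in these calls was not tested. A reference that was empty on all 3 untreated arrays but not on at least 2 estradiol arrays was found for 14 of 294 probes (4.76%) and the reverse for 0. Of those 14, 8 had a difference below 0 and 6 above, with a median of -0.13, and miR-222 was the 1 called lower. The part of the reference channel in the result on miR-222 was not tested.

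**Figure D4:**
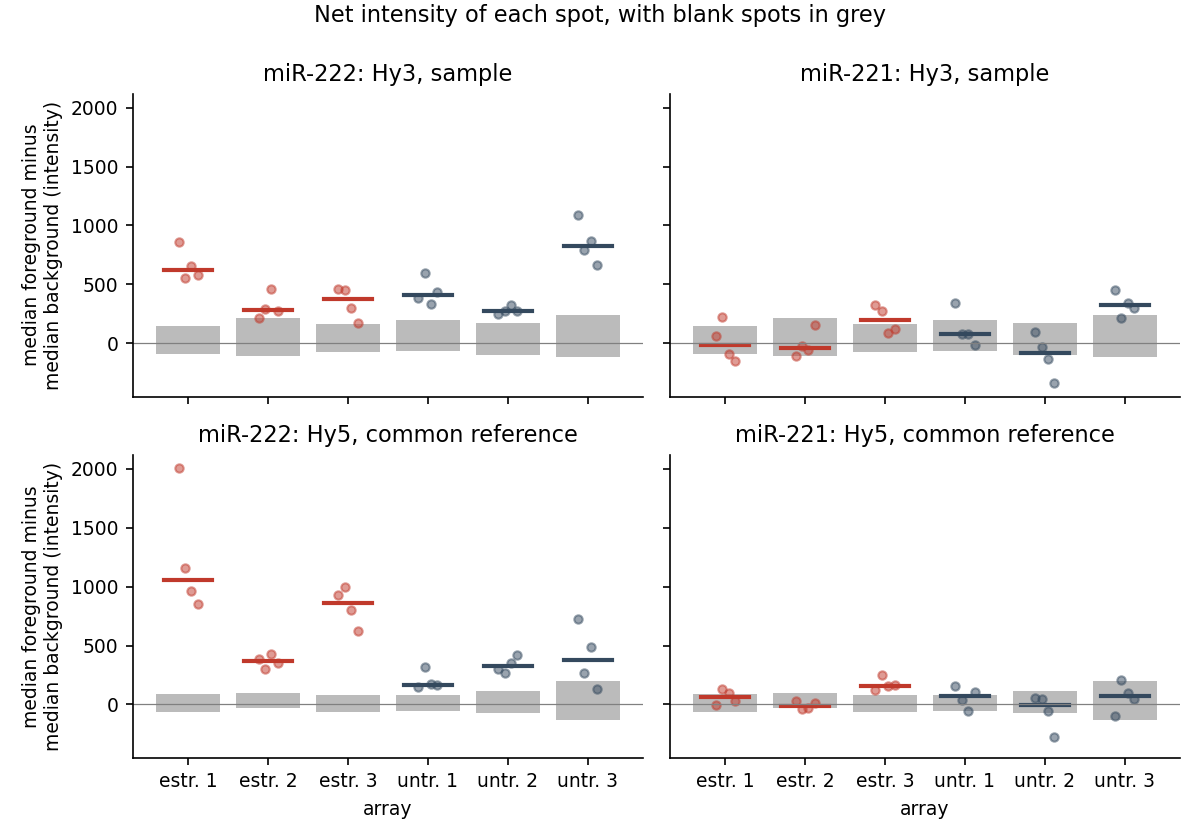
Net intensity (median foreground minus median local background) of each spot of miR-222 (left) and miR-221 (right) in Hy3 (top) and Hy5 (bottom), on 3 estradiol arrays (estr., red) and 3 untreated arrays (untr., dark). Grey bands run over the 5th to 95th percentile of the 80 blank spots of each array and bars are medians of 4 spots: the miR-222 medians lie above the bands in both channels, highest in Hy5 on estradiol arrays 1 and 3 (1058.5 and 865), while most miR-221 medians lie within them.

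Each channel was also normalized on its own by quantiles between arrays, and miR-222 passed the test in neither. The log2 Hy3 level of miR-222 was 9.48, 9.16 and 9.15 in estradiol replicates 1 to 3, against 9.98, 9.44 and 10.43 in untreated replicates 1 to 3. Estradiol replicate 1 lay above untreated replicate 2, so the groups overlapped. The difference of -0.69 did not pass the test (limma adjusted p = 0.19; exact permutation p = 0.2), and 6 of 294 probes did in this channel (2.04%). This difference ranked 270 of 294 from the highest, so in Hy3 alone miR-222 was not the lowest. In Hy5 the difference of miR-222 was 0.08 (limma adjusted p = 0.89). For miR-221 it was -0.40 in Hy3 (adjusted p = 0.52) and 0.05 in Hy5 (adjusted p = 0.92).

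The spots of a probe differed on each array. The SD of the log2 ratio between the spots of miR-221 on an array was 0.40 to 0.81, larger than its difference of -0.36 in size on every array. For miR-222 it was 0.16 to 0.49 on the 5 arrays with more than 1 spot kept. On estradiol replicate 1, 3 of the 4 spots of miR-222 were left out for a fault of the spot, and on estradiol replicate 3, 1 of 4 was. With all spots kept the log2 ratios of miR-222 were -0.46, -0.42 and -0.99 in estradiol replicates 1 to 3, against 0.12, -0.15 and 0.35 in untreated replicates 1 to 3, and the groups again did not overlap.

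Within each array, miR-222 was set against miR-221. The log2 ratio of miR-222 minus that of miR-221 was 0.06, -0.12 and -0.52 in estradiol replicates 1 to 3, against 0.15, 0.14 and 0.29 in untreated replicates 1 to 3. The means were -0.19 ± 0.30 in estradiol-treated cells and 0.20 ± 0.08 in untreated cells (SD, n = 3 each). The groups did not overlap, and the difference was -0.39 (exact permutation p = 0.1, the smallest the design allows). Since the Hy3 signal of miR-221 lay within the range of the blanks on 4 of 6 arrays, these values do not show whether the members moved apart. The members followed each other over the arrays, with Pearson r = 0.911 over 6 arrays that share the reference and the normalization, given as a description. Over the 6 arrays the mean linear ratio to the reference was 0.838 for miR-221 and 0.868 for miR-222.

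By Pearson r over the 6 arrays, among 98 other probes that the spot finder called not empty in Hy3 on at least 3 of 6 arrays, the log2 ratios most like those of miR-221 were miR-351 (0.98), miR-503 (0.944), miR-133b (0.93), miR-130a (0.907) and miR-17-5p (0.897). Those most like miR-222 were miR-503 (0.963), miR-351 (0.939), miR-133b (0.9), miR-17-5p (0.896) and miR-20a (0.895). MiR-351 and miR-503, which are made from a common cluster on the X chromosome, headed both. Other probes of that cluster lay closer to 0, with differences of -0.08 for miR-322, 0.05 for miR-542-5p, and -0.27 and 0.08 for the 2 probes of miR-542-3p, and these 4 were named after their values were seen. MiR-351 differed by -0.43 (limma adjusted p = 0.075) and miR-503 by -0.31 (adjusted p = 0.11), and neither passed the test.

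MiRNAs known to decline in erythroid maturation, the list to which both members belong, had 1 member past the test. Of 10 listed, 9 were matched by name to a probe, of which 0 passed the test higher and 1 lower (miR-222). The 9 had 4 differences below 0 and a median of 0.00, against a median of -0.02 over all 294. MiR-146a was not matched. Probes named miR-146 without a letter, at -0.05 (limma adjusted p = 0.91) and 0.44 (adjusted p = 0.50), were not counted. MiR-103 differed by 0.42 (limma adjusted p = 0.096), miR-223, a miRNA of myeloid cells, by 0.39 (adjusted p = 0.16) and miR-150, a miRNA of mature lymphocytes, by 0.37 (adjusted p = 0.50). Of 11 miRNAs known to rise in maturation, 4 passed the test higher and 0 lower, with a median of 0.43. They were miR-451 (5.04), miR-144 (1.51), miR-16 (0.99) and miR-15b (0.76), of which the miR-144 and miR-451 genes lie side by side and are targets of GATA-1.

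The members lie on the X chromosome, and 30 of the 232 probes matched to a gene by the reference table were on X. Of these, 1 rose (miR-500, at 1.37) and 1 fell (miR-222), with a median difference of -0.07. Of the 202 on other chromosomes, 10 rose and 1 fell, with a median of -0.03.

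Markers of other cell types were read beside this result. Of 4 erythroid markers 3 rose. Of 5 markers of myeloid and mast cells matched by name, 3 rose (miR-21, miR-142-3p and miR-142-5p). The others, miR-223 at 0.39 (limma adjusted p = 0.16) and miR-155 at -0.26 (adjusted p = 0.50), did not pass the test. The mean log2 ratio of the 5 was 0.22 to 0.52 on the estradiol arrays, against -0.40 to -0.09 on the untreated arrays. Of these 5, miR-155 was called empty in both channels on all 6 arrays. None of the lymphoid, megakaryocyte and endothelial, fibroblast, muscle, neural, liver and epithelial markers passed the test. Many of these probes were dim. Called not empty in Hy3 on at least 3 arrays were 1 of 4 lymphoid, 2 of 5 fibroblast and 0 of 2 muscle probes. Of the neural, liver and epithelial probes, 1 of 2, 1 of 1 and 0 of 5 were. For the dim probes, signal near the background limits what the test could show. Of the 4 in the megakaryocyte and endothelial list, miR-126-3p and miR-126-5p, defining miRNAs of endothelial cells, were called empty in Hy3 on all arrays. In Hy3 miR-10a was called not empty on 6 arrays and miR-130a on 5. In Hy5 miR-10a was called not empty on 0 arrays, although the reference was mixed from these same samples. The part of the myeloid markers in the result on miR-222 was not tested.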

How the data were processed

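RNA was labelled with Hy3 (sample) and Hy5 (common reference), per the labels. The deposited scanner tables hold the intensity of each spot and of its surroundings in each channel, without subtraction, per the file headers. The authors' normalized tables hold a ratio of Hy3 over Hy5 per probe after lowess, and its log2, per the file headers. For scanner and spot finder, names and settings were not given in the sources used here. The number of arrays limits the precision.

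Spots with a fault of shape or contamination in either channel were left out where the deposited flag was 3 (111 to 212 of 2240 per array). All spots of miR-221 and all untreated spots of miR-222 had flag 2, so this step could not remove them. Intensities were corrected with normexp (offset 50), normalized by loess within each array (span 0.3, 4 rounds, control spots at weight 0), and averaged over the spots of a probe. All 294 probes were fitted by lmFit and by eBayes with its intensity trend, in limma 3.58.1 (R 4.3.3), without a brightness filter, which would have removed both members. P-values were adjusted by Benjamini-Hochberg at 0.05. The difference between the members had an exact permutation test. Every comparison is estradiol minus untreated, with groups taken from the sample titles. The procedure was tested on simulated data in which changes were put only on probes with signal in both channels. Changes in signals near the background, such as those of the members, were not simulated. Alternatives covered background correction, normalization, the Hy3 channel alone, spot flags, probe filters, the variance model, the replicate number as a block and leaving out each array. Figures were drawn with matplotlib 3.10.9.

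Members, lists and the rule for named miRNAs were chosen with earlier results of these data known. The rule names the members, the 5 probes most alike to each by Pearson r, and from each list up to 4 with the largest change and all past the threshold. Let-7e was named after its value was seen. MiR-146a was not matched by name, and the probes named miR-146 were left out of the lists that hold it.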

Additional observations from a re-analysis of the deposited data

How the results depend on the processing

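Over 22 alternatives, the difference of miR-222 (-0.75) kept its sign in all, and the call on it ended in 9. These were plain background subtraction (-0.68, limma adjusted p = 0.0536), loess on only the probes bright in both channels (-2.15, adjusted p = 0.468), Hy3 alone (-0.69), no intensity trend (-0.75, adjusted p = 0.0974), the replicate block (below), and leaving out estradiol replicate 1, 2 or 3 or untreated replicate 3. That loess was fitted on 41 probes and moved the median of all probes to -1.29, relative to which miR-222 was at -0.86. Centring on spiked controls, chosen after seeing the data, moved that median to -0.10. Leaving out 1 array gave -0.88 to -0.55 for miR-222 (adjusted p 0.0145 to 0.124), -0.46 to -0.29 for miR-221, -0.51 to -0.22 for miR-222 minus miR-221, and 8 to 25 for the count of 19 probes. That count was 12 with median centring, 10 without normalization, 8 with loess on probes above background, 6 in Hy3 alone, 7 with every flagged spot left out (124 probes tested), 7 with the brightness filter (51 tested), 8 without the intensity trend, 9 centred on spiked controls, and 8 and 11 without estradiol replicates 1 and 2. Apart from the smaller number of probes or arrays in some, the cause was not tested. MiR-221 kept its sign and its side of the threshold in all 22, but relative to the median of all probes it was at 0.02 in the authors' lowess spot values with empty spots included. The difference between the members kept its sign in all 22, and its permutation test could not pass the threshold under any of them.

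With the replicate number as a block, miR-222 was at -0.75 (limma adjusted p = 0.0706), and 19 probes were called. The deviations of same-numbered arrays correlated at 0.129, 0.152 and 0.0764, not all above 0.1, so the numbers were not taken as pairing, although every array correlated best with the one of its own number. No value for the members could be had from the authors' log ratios, with every flagged spot left out, or from either filter on dim probes. A slide or scan block was not run, since the headers used here give none. Signal near the background limits both members.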
